A study of Mus musculus with 12 samples.

Results

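Transcript levels of 10 genes of the NF-kappaB system were followed in follicular helper T (Tfh) cells: the 5 subunits Rela, Relb, Rel, Nfkb1 and Nfkb2, the inhibitors Nfkbia, Nfkbib and Nfkbie, the IkappaB-like regulator Nfkbiz, and Tnfaip3. They were chosen by name, and all 10 had an entry among the 25793 genes of the count table and in the FPKM table. The series asks how PD-1, the inhibitory receptor encoded by Pdcd1, bears on the position and function of Tfh cells, and its stated comparison is knock-in (KI) against wild type (WT). There were 6 libraries of Pdcd1+/+ cells and 6 of Pdcd1 KI/KI cells. All groups shared the rest of the design: OT-II T cells, which recognise an ovalbumin peptide, were transduced with GFP and put into B6 mice together with dsRed-expressing MD4 B cells, which recognise hen egg lysozyme (HEL). The hosts received HEL-OVA with LPS and alum, and gave CXCR5-high GFP+ CD4+ cells from lymph nodes on day 5. Strain C57BL/6 was given for every sample, while ages, the number of mice per library and the change made by the knock-in allele are not given in the sources used here. Each library came from a pool of 100 to 200 sorted cells. A library is named below by genotype and by the 2 numbers of its title, such as WT 1-3. The labels do not say what these numbers stand for, and each first number, 1 or 2, held 3 WT and 3 KI libraries.

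NF-kappaB is a family of dimeric transcription factors. In resting cells the IkappaB proteins hold the dimers in the cytoplasm. Signals from the T cell receptor, CD28 and receptors of the TNF family lead to breakdown of the inhibitors, and the freed dimers then switch on genes that include Nfkbia and Tnfaip3, whose products end the signal. In activated T cells the pathway serves survival, cytokine production and costimulation.

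Total gene counts ran from 717506 in WT 1-3 to 1801504 in KI 2-2. WT 1-3 stood apart from the other libraries: 43.9% of its reads aligned to more than 1 place, against a median of 28.3% over the 12. All 10 T cell markers were detected, with summed levels of 5693 to 8891 CPM. CPM are counts scaled to a common library size by TMM, a method that assumes most genes do not differ. All 10 Tfh markers were also detected, including Cxcr5, the receptor the cells were sorted for. Pdcd1 itself ranged from 165.6 to 522.5 CPM in WT and from 21.5 to 129.5 CPM in KI, so the genotypes did not overlap. Its reads were not absent in KI libraries. In the fit with genotype alone, Pdcd1 had a log2 fold change of -2.05 and was not called (edgeR adjusted p 0.231), whereas with first number as a further term it was -2.24 and called (edgeR adjusted p 7.6e-06).

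Per unit of transcript length, the inhibitor Nfkbia was the most abundant of the 10 genes. FPKM, which corrects for transcript length, allows genes to be set beside each other. Nfkbia averaged 139 FPKM (SD 53.3, n = 12), at the 94.3 percentile of the genes tested, and exceeded Rela in 12 of 12 libraries. Rela, the strongly activating subunit p65, averaged 52.5 FPKM (SD 15.5, n = 12). Nfkb1, which encodes p105 and its product p50, averaged 42.2 FPKM (SD 13.6, n = 12), and Rela lay above it in 9 of 12 libraries. Relb, Nfkbib and Nfkbie were close together, at means of 25.6, 24.3 and 22.3 FPKM. Relb exceeded Nfkbib in 7 of 12 libraries, and Nfkbib exceeded Nfkbie in 7 of 12, so these neighbours in the order did not separate. Nfkb2, which encodes p100 and p52 of the non-canonical branch, averaged 14.1 FPKM and Nfkbiz 12.5 FPKM, with Nfkb2 above Nfkbiz in 7 of 12 libraries.

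Tnfaip3 and Rel were the lowest of the 10 genes. Tnfaip3 encodes A20, a ubiquitin-editing enzyme that ends NF-kappaB signalling. It averaged 2.93 FPKM (SD 1.84, n = 12), at the 13.2 percentile of the genes tested. Rel encodes c-Rel, a subunit known from activated lymphocytes. It averaged 1.88 FPKM (SD 1.37, n = 12), at the 5.38 percentile of the genes tested, a set that Rel itself did not enter. Rel counts per library ran from 0 to 23. In KI 1-2 Rel had 0 counts, where 3 counts would have been 1.86 CPM (counting error only). With so few reads Rel failed the filter on low counts, so 9 of the 10 genes entered the fits.

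**Figure D1:**
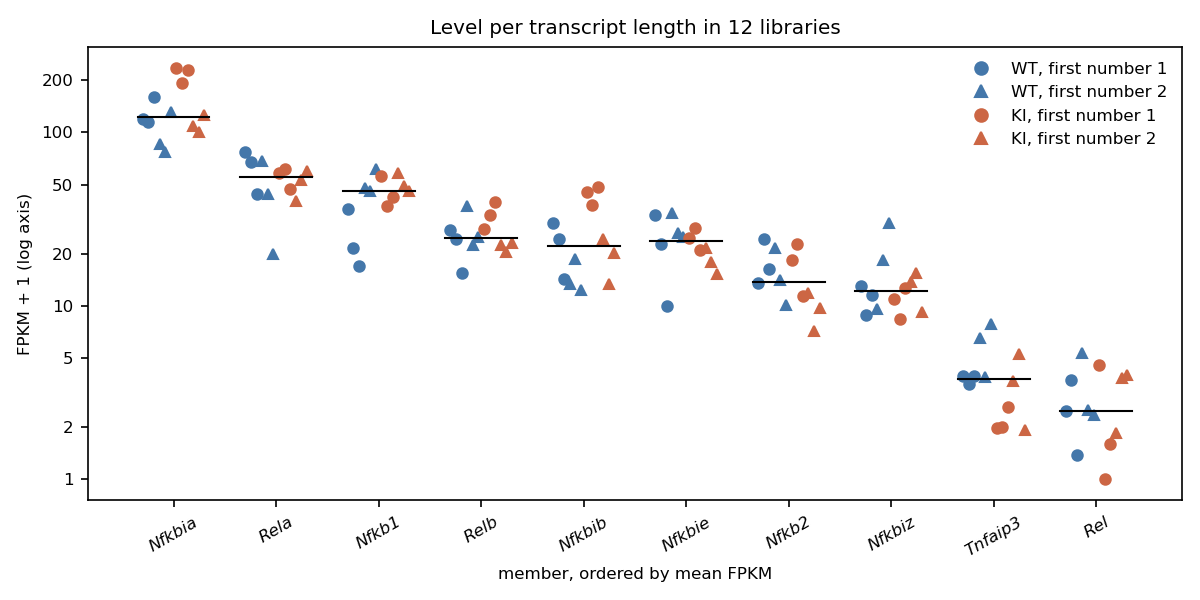
FPKM + 1 on a log axis for each of the 10 genes, ordered by mean FPKM. Each point is 1 of 12 libraries, coloured by genotype and shaped by first title number, and lines mark medians. Nfkbia lies highest and Rel lowest, at means of 139 and 1.88 FPKM.

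Among the 5 subunits, Rela held the largest median share of their summed FPKM, 39.3%, with a range of 16.5% to 50.2%. Nfkb1 followed at a median of 31.4% (15.01% to 53.1%), Relb at 17.1%, Nfkb2 at 9.44% and Rel at 1.21%. The balance of the leading pair varied among the libraries. In WT at first number 1 Rela held 48.3% to 50.2% and Nfkb1 15.01% to 23.1%, whereas in WT 2-3 Rela held 16.5% and Nfkb1 53.1%. Nfkbia transcripts per summed subunit FPKM also varied, from 0.480 in WT 2-1 to 1.79 in WT 1-3.

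The subunit genes lie on 4 chromosomes of mouse build NCBIM37, known as mm9, by the GENCODE vM1 annotation. Rela is at chr19:5637483-5648130 on the plus strand and Nfkb2 at chr19:46379227-46386580 on the plus strand. Relb is at chr7:20191566-20214787, Rel at chr11:23641514-23670970 and Nfkb1 at chr3:135247619-135354511, all on the minus strand. Of the regulators, Nfkbia is at chr12:56590398-56593634, Nfkbib at chr7:29543270-29552531, Nfkbiz at chr16:55811488-55839012 and Tnfaip3 at chr10:18720716-18735463, all on the minus strand. Nfkbie is at chr17:45692665-45700118 on the plus strand. All 10 are protein-coding, and 2 share exonic bases with a gene on the other strand: Nfkbib shares 42 of 2169 with Sirt2, and Nfkb2 shares 4 of 3289 with Psd. The use of strand in counting is not stated, and reads over such bases cannot be assigned.

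Since NF-kappaB dimers bind kappaB sites near several of their own genes, the promoter windows were searched for the 10-base kappaB consensus on both strands. The consensus was GGGRNNYYCC, where R is A or G, Y is C or T and N is any base. A window holds 250 bases before and 50 bases after a RefSeq start (table of build GRCm38.p6), and each printed window was placed by exact match in NCBIM37. RefSeq windows were matched for 7 of the 10 genes, leaving out Relb, Nfkb1 and Nfkbiz. Of 10 windows of these genes, 7 held the consensus, from 5 genes, against 8.49% of 32544 windows of all genes. Of the 3 Nfkb2 windows 2 overlap and share 1 match. A match describes the letters only. The windows of the inhibitors Nfkbia and Nfkbib are printed because both genes differed between first numbers below. Nfkbia holds 1 match, in capitals, which fits the consensus only on the strand opposite to that printed, and Nfkbib holds 0. The Nfkbib window lies wholly inside the gene coordinates given above, so bases at the outer end of those coordinates were not searched.

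Nfkbia (chr12:56593585-56593884, minus strand): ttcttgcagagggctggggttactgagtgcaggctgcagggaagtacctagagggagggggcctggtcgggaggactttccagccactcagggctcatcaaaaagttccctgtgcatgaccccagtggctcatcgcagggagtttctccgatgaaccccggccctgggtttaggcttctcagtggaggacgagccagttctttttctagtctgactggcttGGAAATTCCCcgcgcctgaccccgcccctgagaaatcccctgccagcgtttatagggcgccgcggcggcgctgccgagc
Nfkbib (chr7:29551614-29551913, minus strand): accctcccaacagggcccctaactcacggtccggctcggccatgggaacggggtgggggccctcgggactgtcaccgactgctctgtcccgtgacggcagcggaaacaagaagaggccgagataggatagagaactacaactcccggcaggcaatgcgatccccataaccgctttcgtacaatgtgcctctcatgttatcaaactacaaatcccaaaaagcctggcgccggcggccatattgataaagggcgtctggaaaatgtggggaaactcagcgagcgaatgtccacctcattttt

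For each other gene with a match, 1 is shown with 10 bases on either side, the match in capitals. The matches of Nfkb2, Rel and Nfkbie fit the consensus as printed, and those of Nfkb2 and Rel also on the opposite strand. That of Tnfaip3, like that of Nfkbia, fits it only on the opposite strand, so its printed letters do not line up with the others. The Nfkb2 and Rel matches shown each overlap a second match shifted by 1 base, and Nfkb2 and Tnfaip3 hold further matches that are not printed.
Nfkb2: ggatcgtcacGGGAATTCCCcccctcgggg
Rel: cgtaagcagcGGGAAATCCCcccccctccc
Nfkbie: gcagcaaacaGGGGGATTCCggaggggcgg
Tnfaip3: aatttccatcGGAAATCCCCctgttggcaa
Distances of the matches printed were taken to the RefSeq start of their window. The match of Tnfaip3 ends 3 bases before that start, that of Nfkbia 20 bases and that of Nfkb2 30 bases. Those of Rel and Nfkbie end 83 and 97 bases before it. A RefSeq start need not be the gene end given above, and Tnfaip3 and Nfkb2 have further windows.

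Between the genotypes, none of the 9 tested genes passed the test: 0 reached an adjusted p under 0.05 (edgeR quasi-likelihood test, Benjamini-Hochberg over 7542 genes), where 0.0265% of all tested genes did. An unadjusted p under 0.05 was reached by 1 of the 9, Tnfaip3, and by 5.40% of tested genes, and DESeq2 likewise called 0 of the 9. With first number as a further term, 0 of the 9 were called, against 0.0530% of tested genes, and 4 of the 9 had an unadjusted p under 0.05, against 8.33%. These were Tnfaip3 (95% interval of the log2 fold change -2.07 to -0.16), Nfkbib (0.11 to 1.20), Nfkb1 (0.03 to 0.79) and Nfkbia (0.03 to 0.78), with edgeR adjusted p from 0.498 to 0.549. Tnfaip3 was lower in KI, and Nfkbib and Nfkbia were higher, without passing the test. The median log2 fold change of the 9 genes was -0.06, beside 0.02 over all tested genes, with 4 genes above and 5 below 0. In 0 of the 9 genes did the 6 KI libraries lie wholly above or below the 6 WT libraries, a separation seen in 0.371% of tested genes.

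Tnfaip3 measured 16.7, 16.5 and 23.3 CPM in WT 1-1 to 1-3, and 31.4, 16.3 and 38.5 CPM in WT 2-1 to 2-3. KI libraries gave 5.08, 6.20 and 9.62 CPM at first number 1, and 19.9, 22.4 and 5.54 CPM at first number 2. The KI values were the lower ones throughout first number 1, and the genotypes overlapped at first number 2. The log2 fold change was -1.06 (SE 0.50, 95% interval -2.09 to -0.03), with an edgeR adjusted p of 0.917. Within first number 1 it was -1.43 (edgeR adjusted p 0.574) and within first number 2 it was -0.85 (edgeR adjusted p 0.941). Counts of this gene were low, from 8 to 51 per library, so that counting alone gives a relative error of about 25.3% per library.

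Nfkbib encodes IkappaB-beta, an inhibitor that binds dimers of Rela and c-Rel. It measured 76.7, 69.6 and 51.9 CPM in WT 1-1 to 1-3 and 103.6, 104.7 and 126.4 CPM in KI 1-1 to 1-3. At first number 2 the values were 35.1, 47.2 and 26.4 CPM in WT and 81.0, 28.7 and 54.0 CPM in KI. The KI libraries were thus all above the WT libraries at first number 1, and the groups overlapped at first number 2. Over all libraries the log2 fold change was 0.70 (SE 0.35, 95% interval -0.02 to 1.43), with an edgeR adjusted p of 0.919.

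Nfkbia encodes IkappaB-alpha, the inhibitor that NF-kappaB itself induces. Its level was 240.0, 266.6 and 452.8 CPM in WT 1-1 to 1-3 and 435.2, 425.8 and 483.0 CPM in KI 1-1 to 1-3. First number 2 gave 171.9, 159.7 and 259.7 CPM in WT and 284.2, 184.2 and 266.6 CPM in KI. Apart from WT 1-3, which reached the KI range, WT lay below KI at first number 1. The log2 fold change over all libraries was 0.43 (SE 0.27, 95% interval -0.13 to 0.99; edgeR adjusted p 0.938), and without WT 1-3 it was 0.66 (edgeR adjusted p 0.972). On the FPKM scale the 3 WT libraries at first number 1 measured 119, 114 and 159, and the 3 KI libraries 235, 190 and 229, with no overlap. The share of all genes that separate in this way on the FPKM scale was not computed. WT 1-3 had the lowest TMM factor, 0.801, and a low factor gives higher CPM values. Its part in the overlap on the CPM scale was not tested.

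None of the subunits passed the test. Nfkb1 had a log2 fold change of 0.35 (SE 0.24, edgeR adjusted p 0.938), from a WT median of 216.9 CPM (119.9 to 323.8) to a KI median of 248.5 CPM (216.9 to 405.2). Within first number 1 all 3 KI libraries exceeded all 3 WT libraries, with a log2 fold change of 0.69, and within first number 2 it was 0.13. Rela was at -0.06 (95% interval -0.61 to 0.49), which as a fold in KI is between 0.653 and 1.41. Within first number 1 it was -0.37 and within first number 2 it was 0.32, so the value over all libraries joined differences of opposite sign, neither of which passed the test. For Relb the interval was -0.41 to 0.67, and its libraries ran from 57.3 to 104.8 CPM in WT and from 51.2 to 116.8 CPM in KI. Nfkb2, whose libraries ran from 36.2 to 108.5 CPM in WT and from 22.4 to 94.2 CPM in KI, gave -0.38 (95% interval -1.10 to 0.35). The intervals for Rela and Relb lay within a 2-fold change in either direction, whereas that for Nfkb2 did not.

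Rel was compared by itself, as it failed the filter. Its WT libraries had a median of 4.97 CPM (1.79 to 14.4) and its KI libraries a median of 6.26 CPM (0 to 11.4). The difference of the means of log2(CPM + 1), KI minus WT, was -0.38 and so ran against the order of the medians. The 0 of KI 1-2 enters the KI mean. The difference was within the spread (two-sided exact permutation test, p = 0.606). Of the remaining inhibitors, Nfkbie, which encodes IkappaB-epsilon, had medians of 79.2 CPM in WT and 68.2 CPM in KI, and a log2 fold change of -0.22 (95% interval -0.80 to 0.35). Nfkbiz encodes IkappaB-zeta, a nuclear protein that helps switch on a subset of NF-kappaB targets. It had medians of 63.9 CPM in WT and 50.7 CPM in KI, with a log2 fold change of -0.38 (95% interval -1.02 to 0.26). WT 2-3, at 132.8 CPM, was its highest library.

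**Figure D2:**
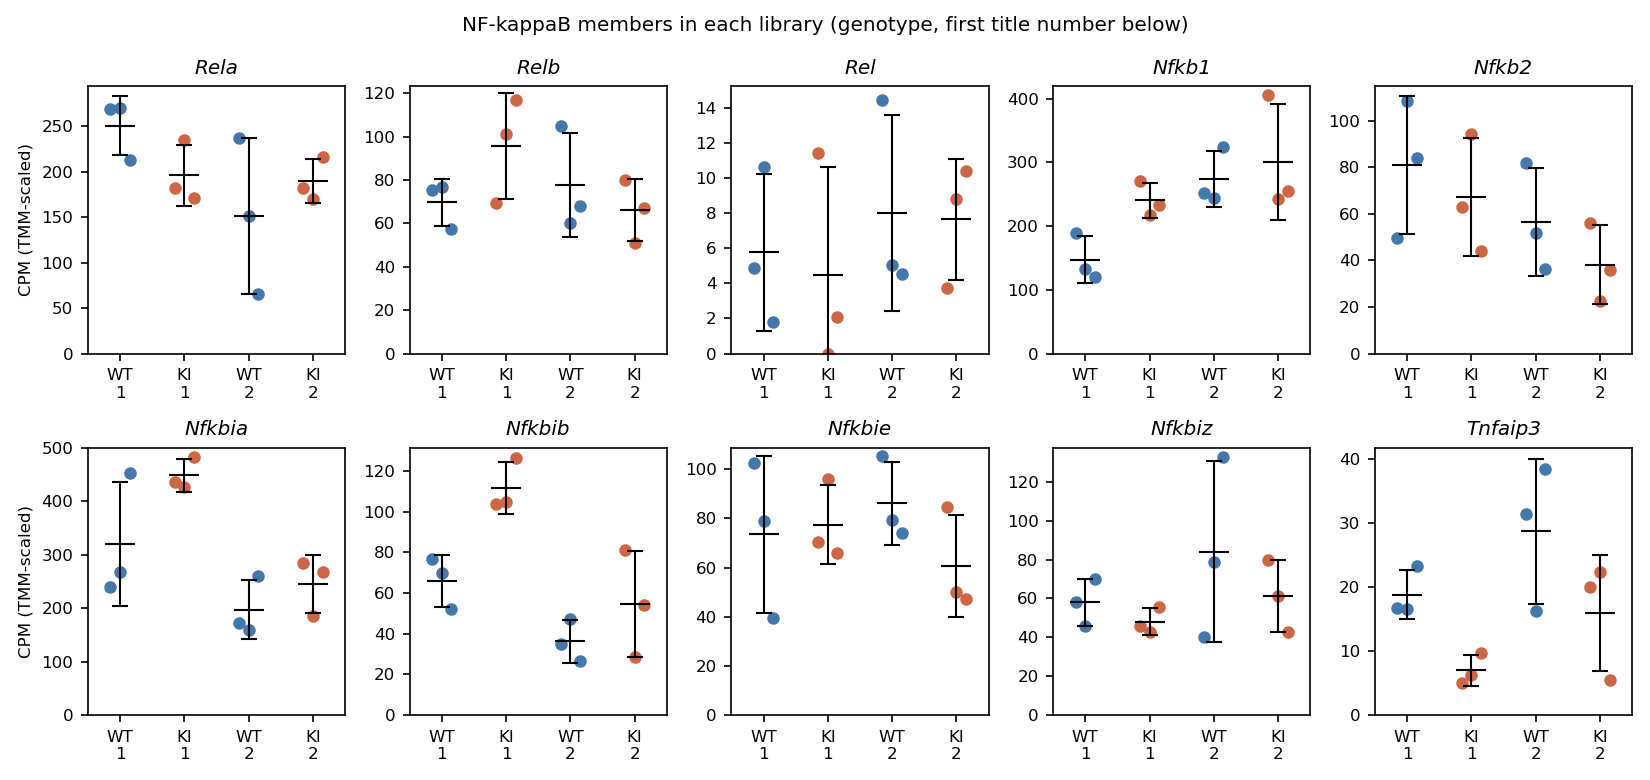
TMM-scaled CPM of the 10 genes on linear axes from 0, by genotype (WT blue, KI orange) and first title number (below each name). Points are libraries, and black marks give the mean and SD of 3 libraries, cut at 0 for Rel. For Nfkbib, Nfkb1 and Tnfaip3 the genotypes separate at first number 1 and overlap at first number 2.

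Inside the first numbers, the genotypes separated without overlap in 3 of the 9 genes at number 1 (Nfkb1 and Nfkbib higher in KI, Tnfaip3 lower), a separation shown by 15.6% of all tested genes. At number 2 the count was 0 of 9, against 11.4% of tested genes. Whether the genotype difference itself changed with first number was tested by an interaction term. It was called for 0 of the 9 genes and for 0% of the 7542 tested (edgeR), with 0 members and 7.21% of genes at an unadjusted p under 0.05. DESeq2 called 7 genes and 0 members. The member with the smallest interaction p was Nfkb1, at a log2 value of -0.57 (SE 0.35, edgeR adjusted p 0.783).

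More of the genes passed the test by first title number than by genotype. Nfkbia and Nfkbib fell and Nfkb1 rose from number 1 to number 2, in a fit that held genotype as a covariate. These 3 of the 9 tested genes passed the threshold, against 16.0% of all 7542 tested genes. By direction, 1 of 9 was higher at number 2, against 8.47% of tested genes, and 2 of 9 lower, against 7.54%. The median log2 fold change of the 9 genes was -0.20, beside 0.01 over all tested genes.

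For Nfkbia the log2 fold change was -0.78 (SE 0.18, 95% interval -1.16 to -0.40), with an edgeR adjusted p of 0.00577. Its mean was 383.9 CPM at number 1 and 221.0 CPM at number 2 (SD 103.4 and 54.9, n = 6 each). All 3 KI libraries at number 2 lay below all 3 KI libraries at number 1, while in WT the range at number 2 reached into that at number 1. Nfkbib showed the larger difference, at -0.96 (SE 0.26, 95% interval -1.51 to -0.42; edgeR adjusted p 0.0152), with means of 88.8 and 45.4 CPM (SD 27.4 and 20.4, n = 6 each). Within each genotype its 3 libraries at number 2 lay below the 3 at number 1. Both genes passed the edgeR threshold in each of 12 fits that left out 1 library, with adjusted p up to 0.0218 for Nfkbia and 0.0435 for Nfkbib.

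Nfkb1 moved in the opposite direction, with a log2 fold change of 0.60 (SE 0.18, 95% interval 0.21 to 0.98; edgeR adjusted p 0.0310). WT libraries gave 189.1, 132.1 and 119.9 CPM at number 1 and 252.2, 244.7 and 323.8 CPM at number 2. KI libraries gave 270.6, 216.9 and 233.6 CPM at number 1 and 405.2, 242.2 and 254.8 CPM at number 2. The first numbers were apart in WT and overlapped in KI. This call was less stable than the others: it was lost in 7 of 12 fits that left out 1 library (WT 1-2, WT 1-3, WT 2-1, WT 2-3, KI 1-2, KI 1-3 or KI 2-1), with edgeR adjusted p from 0.0225 to 0.0876 over the 12, and in limma fits of FPKM.

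The other tested genes did not pass. Nfkb2 was at -0.67 (SE 0.30, edgeR adjusted p 0.133) and Tnfaip3 at 0.89 (SE 0.46, edgeR adjusted p 0.197). Rela was at -0.39 (edgeR adjusted p 0.273) and Nfkbiz at 0.44 (edgeR adjusted p 0.298). Relb and Nfkbie gave -0.20 and -0.08, with edgeR adjusted p of 0.618 and 0.869. Rel had a median of 3.47 CPM at number 1 and 6.92 CPM at number 2 (two-sided exact permutation test on log2(CPM + 1), p = 0.206). In 0 of the 9 genes did all 6 libraries of one first number lie apart from all 6 of the other, against 6.48% of tested genes. Within WT alone 2 of the 9 separated (Nfkb1 and Nfkbib), against 27.2% of tested genes, and within KI alone 2 of the 9 (Nfkbia and Nfkbib), against 26.5%. Those shares lie near the background.

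**Figure D3:**
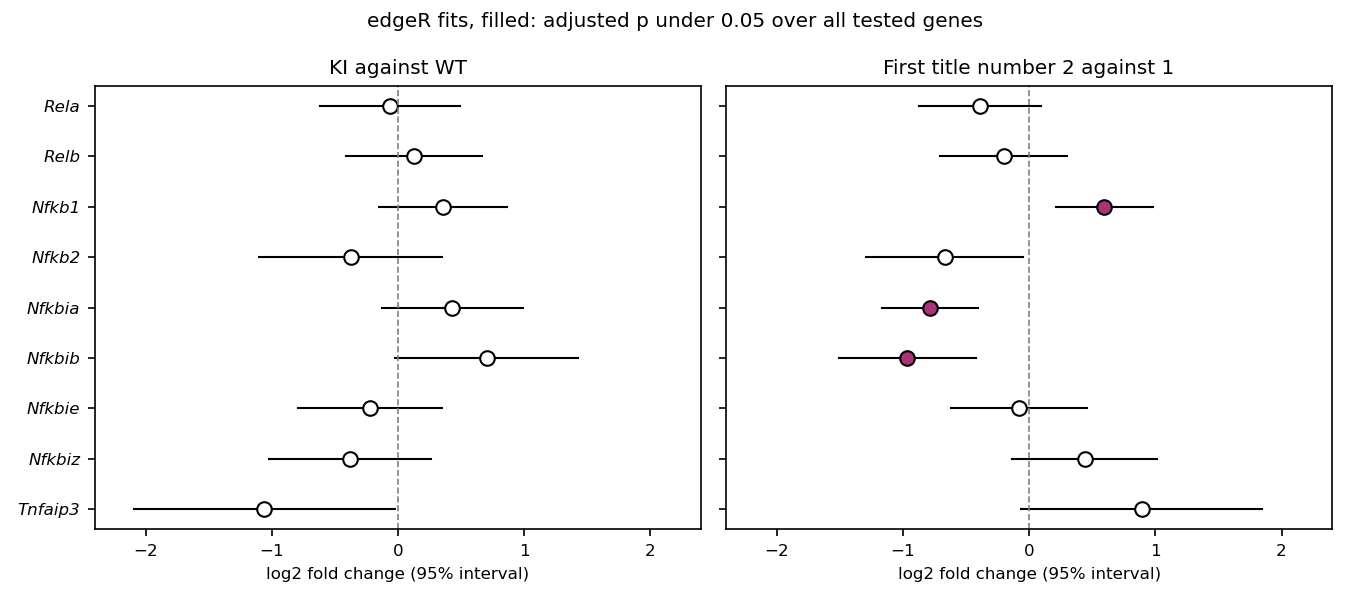
Log2 fold changes with 95% intervals for the 9 tested genes, KI against WT on the left and first title number 2 against 1 on the right. Filled points have an edgeR adjusted p under 0.05: 0 on the left, and Nfkb1, Nfkbia and Nfkbib on the right.

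Of the T cell markers Cd247, Lat and Zap70 were called lower at number 2, with log2 fold changes of -1.24, -0.70 and -0.45. Of the 10 Tfh markers Pdcd1 (-1.56) and the sort marker Cxcr5 (-0.72) were called lower, and Sh2d1a (0.74) and Icos (0.76) higher. Among the markers of other cells, calls by first number were made only for those of CD8, NK and cytotoxic cells. Fewer cells of a type cannot be told apart from less RNA per cell in such pools. The summed level of the 10 T cell markers was 8171 to 8891 CPM at number 1 and 5693 to 8064 CPM at number 2. The 10 markers of CD8, NK and cytotoxic cells summed to 75.5 to 241.6 CPM at number 1 and 225.7 to 569.7 CPM at number 2; Ncr1 was at 0 in all libraries, and 3 of the 4 tested ones (Nkg7, Klrb1c and Cd8b1) were called higher. The 10 B cell markers summed to 116.9 to 235.5 CPM and 178.6 to 346.5 CPM, with 0 of 6 tested called and Pax5 at 0 throughout. By genotype the B cell sum was 149.3 to 346.5 CPM in WT (median 210.5) and 116.9 to 235.6 CPM in KI (median 210.2). Of the 6 tested B cell markers 0 were called by genotype, and 3 had an unadjusted p under 0.05. Their median log2 fold change was -1.29 in KI, with 5 below 0 and 1, Cd22, above 0 at 0.55. Of 11 myeloid markers 4 were at 0 in every library (Itgax, Cd14, Fcgr1 and Clec9a) and none passed the filter. The 11 summed to 3.81 to 223.7 CPM at number 1 (median 8.40) and 5.06 to 53.3 CPM at number 2 (median 22.6). The value of 223.7 CPM came from WT 1-3. In WT the medians were 12.6 CPM at number 1 and 12.5 CPM at number 2. KI libraries ran from 3.81 to 6.18 CPM at number 1 and from 32.4 to 53.3 CPM at number 2. The part of these markers' cells in the differences of Nfkbia, Nfkbib and Nfkb1 by first number, or in those by genotype, was not tested.

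The wider pathway was read from fixed lists: other IkappaB-like proteins, kinases and adaptors, negative regulators, receptors, target genes and immediate early genes. Some genes stand in more than 1 list. Between the genotypes 0 genes of the 6 lists passed the edgeR threshold. Median log2 fold changes ran from -0.06 for the 19 tested kinases and adaptors (7 above 0 and 12 below) to 0.24 for the 10 tested receptors (6 above and 4 below), beside 0.02 for all genes. The 3 tested IkappaB-like genes had a median of 0.22, the 13 negative regulators 0.19, the 20 target genes 0.15 and the 11 immediate early genes 0.17.

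At an unadjusted p under 0.05, reached by 5.40% of all tested genes, there were 3 of 10 receptors, 1 of 20 targets, 2 of 11 immediate early genes and 0 in each of the other 3 lists. The receptors with the smallest p were Tnfrsf18, which encodes the costimulatory receptor GITR, at 0.72, and Il1r1, an interleukin-1 receptor, at -1.16 (edgeR adjusted p 0.914 each). Targets with the smallest p were the survival genes Bcl2a1d at -0.98 and Bcl2a1b at -0.55, near-identical copies among which reads may be split. The immediate early genes were the phosphatase Dusp2 at 0.84 and Ier2 at 0.74. In the remaining lists the leading genes were Rbck1, a subunit of the linear ubiquitin ligase, at 0.40 and Malt1, a protease downstream of the antigen receptor, at -0.66. Copb2, a coatomer subunit, was at 0.46 and Tnip1, a partner of A20, at 0.33. Nfkbid, which encodes the nuclear IkappaB-NS, was at 0.22 and Nfkbil1 at 0.26.

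By first number, where 8.47% of all tested genes were called higher and 7.54% lower, calls were made in each list and in both directions where more than 1 gene was called, except for the receptors. Among the IkappaB-like genes Bcl3, a nuclear partner of p50 and p52, was lower at number 2, with a log2 fold change of -0.80 (edgeR adjusted p 0.0491), and all 3 had values below 0. Of the 19 kinases and adaptors 3 were called higher and 2 lower. The adaptor Traf1 was at -1.22 (edgeR adjusted p 6.9e-05), falling from 286.7 ± 49.2 to 122.2 ± 14.8 CPM (SD, n = 6 each). Chuk, which encodes the kinase IKK-alpha, rose by 1.41 (edgeR adjusted p 0.0243) and the ubiquitin ligase gene Birc3 by 1.70 (edgeR adjusted p 0.00306), both on the log2 scale.

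Of 13 negative regulators 3 were called higher and 1 lower. For this and the lists below, the shares over all tested genes were 8.47% higher and 7.54% lower. Tax1bp1, an adaptor of A20, was higher at number 2, with a log2 fold change of 0.97 (edgeR adjusted p 0.00223). Further A20 partners, the ring finger gene Rnf11 and the ubiquitin ligase gene Itch, were at 2.26 and 0.90 (edgeR adjusted p 0.0215 and 0.0417). Usp18, best known for removing the interferon-induced modifier ISG15, was at -2.17 (edgeR adjusted p 0.00113). Among the 10 receptors the costimulatory genes Icos and Cd28 were called higher, at 0.76 and 0.50, and 0 lower. Of the 20 target genes 2 were called higher and 2 lower, and their median was 0.01, as for all genes. These were Birc3 and Bcl2a1b (0.79), and Traf1 and Bcl3. Of 11 immediate early genes Dusp2 was called higher (0.89) and Ier2 lower (-0.80).

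**Figure D4:**
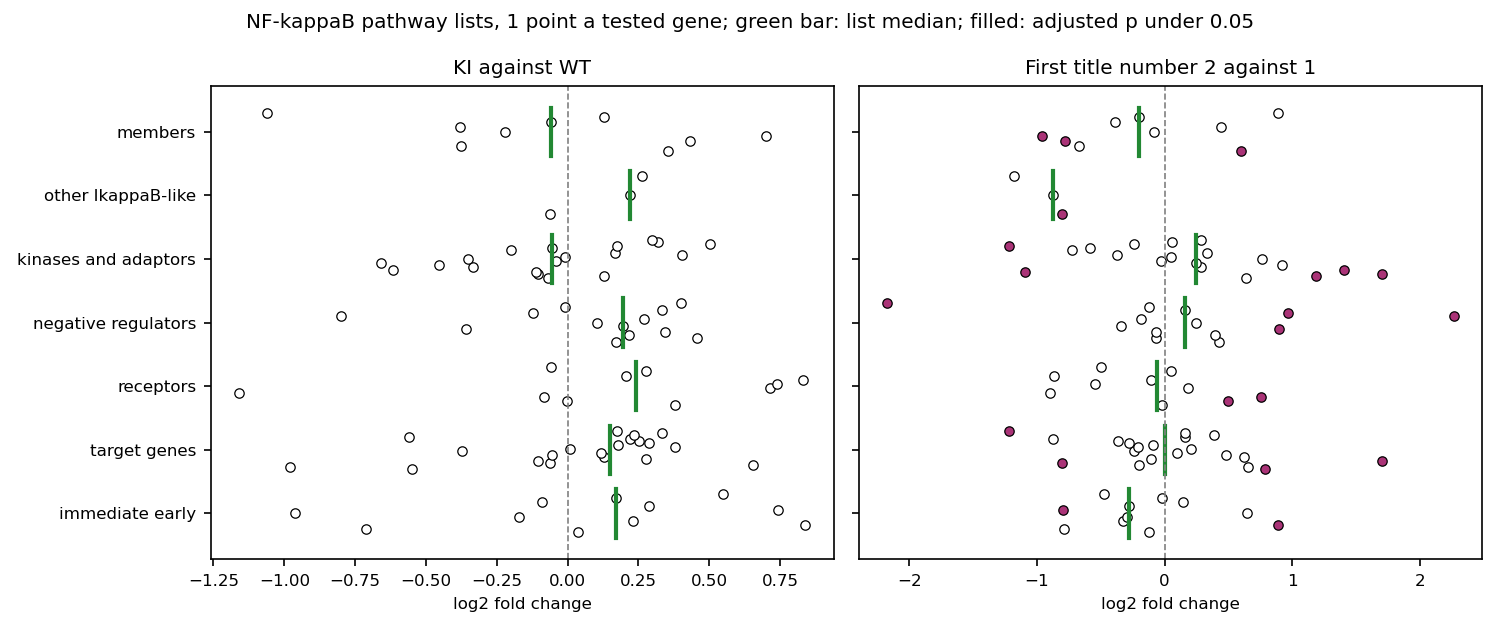
Log2 fold changes of the tested genes of the NF-kappaB system and of 6 further lists, KI against WT on the left and first title number 2 against 1 on the right. Green bars are list medians, and filled points have an edgeR adjusted p under 0.05, with 0 on the left and points on both sides of 0 on the right.

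The genes that were compared in pairs did not all rise and fall together. Over the 8 genes with a mean of at least 50 counts, Pearson r of log2 CPM was taken for each pair within first number 1 and within first number 2 (6 libraries each, WT and KI together), as a description. Of 28 pairs 11 had a positive r in both, 8 a negative r in both and 9 differed in sign. In 0 pairs was r above 0.5 in both. Pairs of other tested genes were not counted in this way, so these counts have no background beside them. Nfkb1 and Nfkbib had r = 0.91 at number 1 and 0.48 at number 2, and Relb and Nfkbie 0.48 and 0.75. Rela ran against Nfkbia, at -0.86 and -0.25, and against Nfkbiz, at -0.10 and -0.91. These points share library depth and amplification, and the pairs named here were chosen after their values were seen.

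For each of the 8 genes the genes with the most similar profile were found among the 7542, by the smaller of the r values within the 2 first numbers. The profile of Nfkbia was most like that of Hspa8, which encodes a constitutive heat shock chaperone (r = 0.91 and 0.89), and of Gigyf2 (0.89 and 0.94). Nfkbib was closest to Ptpn18, a phosphatase gene (0.90 and 0.98), and Tmem149 (0.90 and 0.90). Nfkb1 was closest to Cog3, of a Golgi tethering complex (0.88 and 0.88), and Scap, the sterol sensor (0.86 and 0.95). For Rela these were RP23-195K8.6 (0.90 and 0.92) and the splicing kinase gene Srpk2 (0.89 and 0.97). Relb was closest to BC004004 and Sip1, Nfkb2 to 1300018I17Rik and Ggct, Nfkbie to Mri1 and Insl6, and Nfkbiz to Gnai3 and Arap2. Sip1, Cog3, Gigyf2 and Insl6 averaged only 14.5 to 19.7 counts per library. None of the 16 genes named in this way was one of the 10, of which only 9 were among the 7542. The r values were picked as the highest among 7542 genes over 6 libraries each, and no background was computed for them.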

How the data were processed

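Polyadenylated RNA was measured by sequencing in 12 libraries. The authors deposited raw read counts per gene symbol for 25793 genes with 5 rows of unassigned reads (39.8% to 53.9% of the reads in the table, left out of library sizes), and FPKM values for 25819 entries, of which 27 names were repeated and summed. Per the submitters' processing notes, CASAVA, TopHat2, Cufflinks, HTSeq and DESeq2 were used with mm9; versions, annotation and strand use are not given in the sources used here. No per-sample column lacked a sample (0 others).

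Genotype and title numbers come from the labels, and nothing says that libraries came from separate mice, so p-values measure the spread between these samples. Libraries of 1 genotype differed by more than sampling noise (chi-square per degree of freedom 8.58 to 37.0 over 30 pairs). Counts were filtered with filterByExpr (7542 genes), scaled by TMM and tested with edgeR 4.0.16 in R 4.3.3 (glmQLFit and glmQLFTest at default settings), with genotype alone, genotype plus first number, or their interaction. Each standard error was the absolute fold change divided by the root of F, and 95% intervals used the F test's degrees of freedom. Benjamini-Hochberg adjustment ran over all tested genes, with a threshold of 0.05. Rel was compared by a two-sided exact permutation test over 924 arrangements on log2(CPM + 1). The fits by genotype and by first number were also run on simulated counts in which only the tested factor changed genes. The simulated genotype comparison held no difference by first number, so it does not cover the main genotype fit where such differences exist. Alternatives used RLE and upper-quartile scaling, other filters, DESeq2 1.42.0, limma 3.58.1 on log2(FPKM + 1) and log2(FPKM + 0.1) for genes with a mean FPKM of at least 1, blocks, subsets and leaving out each library.

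The members and lists were chosen with earlier results of these data known. By rule the text names all members, Pdcd1, up to 4 called genes per list and comparison (the 2 with the smallest p where none was called), and the 2 most similar genes of each member with a mean of at least 50 counts (r of log2 CPM, prior count 2). One gene that this rule selects is not reported here.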

Additional observations from a re-analysis of the deposited data

Results flagged for a closer look

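In 20 sets of 6 libraries (10 genes in each genotype), the gap between the extreme library and its nearest neighbour, over the whole range, was tested against Dixon's 95% value of 0.625. It was exceeded in 2 sets, where about 1 is expected by chance. Nfkb1 stood at 405.2 CPM in KI 2-1, against 270.6 CPM in the next KI library (ratio 0.715). Nfkbia stood at 452.8 CPM in WT 1-3, against 266.6 CPM in the next WT library (ratio 0.635). These 2 libraries had the lowest TMM factors, 0.868 and 0.801, and the highest shares of reads aligned to more than 1 place, 34.3% and 43.9%. WT 1-3 also had the highest summed level of the myeloid markers, 223.7 CPM, against a median of 12.6 CPM over the 12 libraries. The part of any of these features in the gaps was not tested.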

How the results depend on the processing

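The count of members called was 0 in all 23 alternatives for KI against WT and in all 20 for the interaction. By first number it was 2 or 3 in 20 of 22 alternatives and 1 within WT alone (Nfkb1) and 1 within KI alone (Nfkbia). All genes called for KI against WT numbered 2; no filter gave 4, DESeq2 11, either FPKM pseudocount 0, first number 2 alone 1, and leaving out 1 library 0 to 2. By first number 1208 of 7542 tested genes were called. FPKM with 0.1 added gave 782 of 9378, WT alone 490 of 5199 and KI alone 558 of 5378. Leaving out 1 library gave 751 (without KI 2-2) to 1252. For the interaction, 0 genes were called, against 140 without the filter, 7 by DESeq2, 1 on FPKM with 0.1 added, and 0 to 24 leaving out 1 library (24 without WT 1-1). The median over all genes moved by more than 0.1 only on FPKM, to 0.11 by first number with 0.1 added and to -0.26 and -0.31 for the interaction. Subsets hold fewer samples, and the number of genes tested differs among the settings. The cause was not tested further.

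Same-numbered WT and KI libraries had deviations that correlated at 0.0828 to 0.258, not all above 0.1, so the numbers were not taken as pairs. Between WT and KI libraries of the same first number the mean correlation was 0.1656, and between those of different first numbers -0.1655. The main fit by genotype holds no term for the first number. Taking the first number for a replicate block, KI against WT gave 4 genes and 0 members, with 4 of 9 members and 628 of 7542 genes at an unadjusted p under 0.05, in place of 1 and 407; with both numbers as the block it gave 3 genes and 0 members.

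Directions turned for Rela, Relb and Nfkbie, whose values did not pass the test. Rela in KI against WT went from -0.06 to 0.11 on either FPKM scale, 0.040 with both numbers as the block, -0.37 within first number 1 and 0.32 within first number 2, and -0.24 to 0.046 leaving out 1 library. Relb went from 0.13 to -0.24 within first number 2 and to between -0.0033 and 0.26 leaving out 1 library. Nfkbie went from -0.22 to 0.043 within first number 1. By first number, Nfkbie went from -0.08 to 0.043 and 0.048 on FPKM, 0.22 within WT and -0.24 to 0.027 leaving out 1 library, Relb went from -0.20 to 0.17 within WT, and Rela from -0.39 to 0.013 within KI. Tnfaip3 at 8 to 51 counts and Rel at 0 to 23 counts are limited by depth.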
